A study of Mus musculus with 300 samples.

Results

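Transcripts of 45 mouse genes that build peroxisomes or work inside them were followed through 4 tissues of mice dosed with agonists of the 3 peroxisome proliferator-activated receptors (PPARs). The genes were taken by name, with earlier results of these data known. They were 13 Pex genes of peroxisome biogenesis, 5 genes of membrane transporters and channels, and 27 genes of peroxisomal enzymes, among 18193 genes with a name in the table. All 45 were measured, and for the 24 genes with several probe sets the probe set with the highest mean intensity stood for the gene. The mice had received WY14643, an agonist of PPAR-alpha, GW501516, an agonist of PPAR-delta, or rosiglitazone, an agonist of PPAR-gamma, each at 10 mg/kg by mouth, or vehicle, and were sampled on days 4, 8 and 15. Each compound had 5 animals per day (15 in all) and vehicle had 10 per day (30 in all), and liver, heart, kidney and skeletal muscle of all 75 animals were each hybridised to an Affymetrix Mouse Genome 430 2.0 array, which gave 300 arrays. The strain, sex and age of the mice and the composition of the vehicle are not given in the sources used here.

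Peroxisomes are organelles bounded by a single membrane that shorten very-long-chain and branched fatty acids, process bile acid precursors, begin the synthesis of ether lipids and break down the hydrogen peroxide that their oxidases release. Pex proteins insert the membrane proteins, import the matrix enzymes from the cytosol and divide the organelle. In rodent liver, agonists of PPAR-alpha are known to enlarge the peroxisome population, and the receptor binds DNA with its partner RXR at direct repeats of the hexamer AGGTCA with 1 base between them.

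The promoter bases before the annotated start are shown for 3 members: Ehhadh and Pex11a, the enzyme and the Pex gene whose responses are described first, and Cat, the catalase gene, which was not called against vehicle with any compound in any tissue. Sequences are from RefSeq on build GRCm38.p6, 250 bases each, 5′ to 3′ on the gene's strand. Capitals mark the 13 bases that match the full repeat AGGTCANAGGTCA best on either strand, or the first such stretch where several match equally.
Ehhadh, chr16:21787835-21788084, minus strand: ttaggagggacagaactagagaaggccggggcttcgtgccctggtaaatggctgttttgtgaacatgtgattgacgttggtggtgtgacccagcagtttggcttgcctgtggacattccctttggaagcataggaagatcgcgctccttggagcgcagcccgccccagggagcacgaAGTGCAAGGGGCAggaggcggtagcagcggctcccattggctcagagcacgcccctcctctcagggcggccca
Pex11a, chr7:79743132-79743381, minus strand: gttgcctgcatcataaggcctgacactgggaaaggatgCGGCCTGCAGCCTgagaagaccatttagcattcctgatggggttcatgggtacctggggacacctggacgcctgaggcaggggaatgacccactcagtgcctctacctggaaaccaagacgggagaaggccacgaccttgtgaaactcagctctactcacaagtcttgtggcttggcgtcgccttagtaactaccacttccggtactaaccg
Cat, chr2:103485154-103485403, minus strand: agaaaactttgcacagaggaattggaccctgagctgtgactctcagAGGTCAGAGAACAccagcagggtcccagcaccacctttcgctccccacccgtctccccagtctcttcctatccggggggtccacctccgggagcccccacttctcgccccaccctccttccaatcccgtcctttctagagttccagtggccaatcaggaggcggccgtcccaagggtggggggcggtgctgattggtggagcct
The capitals hold 2 mismatches to the repeat in Cat, 4 in Ehhadh and 5 in Pex11a. Cat had the fewest mismatches of all members with a window, so it does not stand for the uncalled members. The best match had 3 mismatches in Acox2, which was called with WY14643 in liver. It also had 3 in Dao, Nudt19 and Pex11g, which were called in no comparison with vehicle. A match with at most 2 mismatches was present in 3.24% of the 32851 windows of all genes and one with at most 3 in 21.3%. Matches with at most 4 and at most 5 mismatches were present in 74.5% and 99.6%. Windows were found for 38 of the 45 members (47 windows, since some genes have more than 1 start). The full repeat occurred in 0 of these members and in 0.033% of all windows, searched on both strands, and the looser repeat AGGNCANAGGNCA occurred in 0 members and in 0.338% of all windows. The hexamer AGGTCA alone, which also lies within both repeats, was found in Cat, Dao, Pex11g and Scp2, and in 14.0% of all windows. The E-box CACGTG was found in Dao, Gnpat and Lonp2, and in 6.02% of all windows. These counts describe the letters in short windows and say nothing of where a receptor binds.

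Array values are log2 intensities, so levels of one gene can be set between groups of a tissue but not between genes or tissues. Array medians were 6.12 to 6.26 for liver, 7.27 to 7.44 for heart, 5.05 to 5.38 for kidney and 4.98 to 5.13 for muscle. The tissues carried their own defining markers: the mean log2 intensity of the marker list was 14.16 to 14.31 for hepatocytes in liver, 12.19 to 14.58 for cardiomyocytes in heart, 10.65 to 11.69 for tubule cells in kidney and 13.10 to 13.54 for myofibres in skeletal muscle. Heart arrays also carried hepatocyte transcripts, with a list mean of 5.94 to 11.97 per array, and neutrophil transcripts at up to 11.44. Kidney arrays carried hepatocyte transcripts at 5.90 to 8.22. In muscle arrays the hepatocyte list mean ran from 3.68 to 11.45, with a median of 4.64 that lay below every muscle array median. Adipocyte transcripts in muscle arrays stood at 7.17 to 11.97. In liver, 6 of 7 neutrophil markers rose with WY14643 (list mean per array 5.85 to 9.39 with WY14643 and 5.50 to 7.19 with vehicle) and 6 of 12 hepatocyte markers fell (14.16 to 14.29 with WY14643 and 14.23 to 14.31 with vehicle). By the same test, described below, 11.2% of all genes changed with WY14643 in liver. Marker counts for the other compounds are not given here, so these do not set WY14643 apart. The part of these markers in the results was not tested in liver.

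The first question was which peroxisomal genes each agonist moved in liver. A gene is called changed where the adjusted p of limma, by Benjamini-Hochberg over all 18193 genes, is under 0.05; the effect is the mean of the 3 same-day differences from vehicle, and the SE is its standard error (n = 15 treated and 30 vehicle arrays). With WY14643, 13 members rose and 4 fell, while 11.2% of all genes were called. With GW501516, 14 rose and 0 fell against 13.9% of all genes called, and with rosiglitazone 7 rose and 4 fell against 16.2% of all genes called. The median log2 fold change of the 45 members was 0.063, 0.059 and 0.026 with WY14643, GW501516 and rosiglitazone, beside a median over all genes of -0.010, -0.0079 and -0.024. The 3 compounds were compared with the same vehicle arrays, so their lists are not independent of each other. Some members are counted below at an unadjusted p under 0.05. No share of all genes at that threshold is given, so those counts cannot be set against the shares called. In whole tissue, fewer cells of a type and less RNA per cell cannot be told apart.

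**Figure D1:**
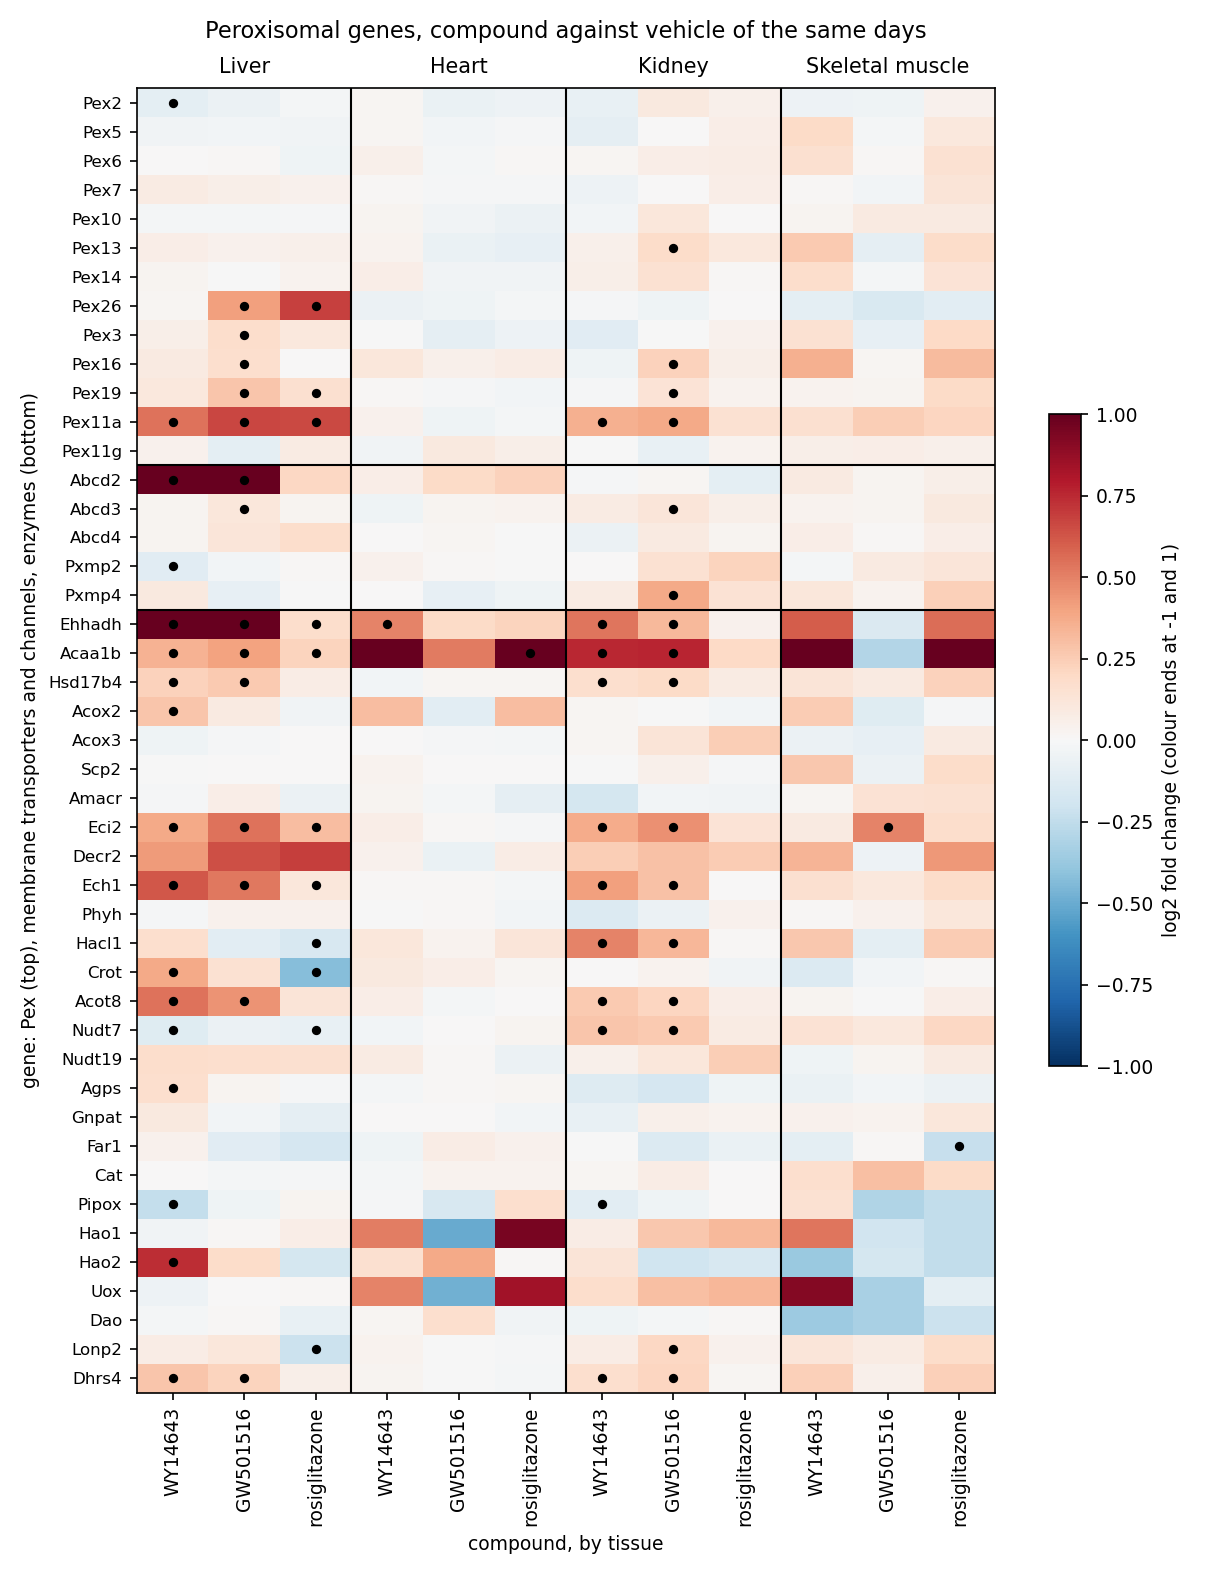
Log2 fold change against same-day vehicle of each member (rows, ordered by role) for each compound in each tissue (columns, WY14643, GW501516 and rosiglitazone within a tissue); colour gives the log2 fold change and a mark shows an adjusted p under 0.05 (limma). The marks gather in liver and in the kidney columns of WY14643 and GW501516, with 1 mark or none in each column of heart and skeletal muscle.

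Ehhadh, the bifunctional enzyme of the straight-chain beta-oxidation path, had the smallest p of the members with WY14643. Its liver level was 13.15, 13.44 and 13.79 (lowest, median and highest array) with WY14643, 12.80, 13.20 and 13.47 with GW501516, 11.54, 11.75 and 12.12 with rosiglitazone, and 10.97, 11.65 and 12.08 with vehicle. All arrays of WY14643 and of GW501516 lay above all vehicle arrays, while those of rosiglitazone overlapped vehicle. Its log2 fold change was 1.89 with WY14643 (SE 0.056, limma adjusted p = 2.76e-39), 1.56 with GW501516 (SE 0.056) and 0.18 with rosiglitazone (SE 0.056, limma adjusted p = 0.0193, higher in 10 of 15 arrays). The rosiglitazone call was lost without its day 8 replicate 2 (0.15, limma adjusted p = 0.0541). On single days the rosiglitazone difference was 0.49 on day 4, 0.05 on day 8 and 0.00 on day 15, with the day 4 value called.

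Abcd2, a transporter that brings very-long-chain acyl-CoA into the peroxisome, rose with WY14643 and GW501516 and varied widely between arrays. Its liver level was 6.11, 7.84 and 9.57 with WY14643, 6.15, 8.34 and 8.96 with GW501516, 5.45, 6.45 and 8.24 with rosiglitazone, and 5.15, 6.17 and 8.24 with vehicle. All groups overlapped, with 14 of 15 WY14643 arrays above the vehicle mean of their day. The log2 fold change was 1.59 with WY14643 (SE 0.26, limma adjusted p = 4.09e-06) and 1.83 with GW501516 (SE 0.26). Of its 4 probe sets, 3 rose with both compounds and 1 was not called, at 0.09 with WY14643 and 0.12 with GW501516. Abcd3, an abundant acyl-CoA transporter of the peroxisomal membrane, rose with GW501516 (0.11, SE 0.030, limma adjusted p = 0.0060). With WY14643 it gave 0.03, and WY14643 and GW501516 were not separated (-0.08, 95% interval -0.15 to -0.01, limma adjusted p = 0.18).

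Pex11a, which elongates and divides peroxisomes, rose with all compounds. Its liver level was 11.22, 12.02 and 12.49 with WY14643, 11.73, 12.13 and 12.42 with GW501516, 11.92, 12.14 and 12.38 with rosiglitazone, and 11.04, 11.44 and 11.96 with vehicle. The ranges of all compounds overlapped that of vehicle, most narrowly for rosiglitazone, whose lowest array lay just under the highest vehicle array. The log2 fold change was 0.54 (SE 0.068, limma adjusted p = 5.88e-09), 0.67 (SE 0.068) and 0.66 (SE 0.068, limma adjusted p = 1.17e-11) with WY14643, GW501516 and rosiglitazone. The second probe set of Pex11a gave 0.64, 0.83 and 0.85 in the same order. GW501516 and rosiglitazone differed by 0.01 for this gene (95% interval -0.15 to 0.16).

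Pex26, which anchors the import ATPase complex in the membrane, had liver levels of 9.27, 9.67 and 10.60 with WY14643, 9.41, 10.20 and 10.49 with GW501516, 9.87, 10.44 and 10.79 with rosiglitazone, and 8.73, 9.76 and 10.23 with vehicle. The groups overlapped, and 14 of 15 rosiglitazone arrays and 12 of 15 GW501516 arrays lay above the vehicle mean of their day. Pex26 rose by 0.68 with rosiglitazone (SE 0.094, limma adjusted p = 6.79e-08) and by 0.41 with GW501516 (SE 0.094, limma adjusted p = 0.000876). Pex19, the chaperone that carries new membrane proteins to the organelle, had liver levels of 9.62, 10.05 and 10.34 with WY14643, 10.01, 10.18 and 10.38 with GW501516, 9.84, 10.07 and 10.36 with rosiglitazone, and 9.61, 9.91 and 10.20 with vehicle. These ranges overlapped for every pair of groups. Pex19 rose by 0.28 with GW501516 (SE 0.047, limma adjusted p = 8.57e-06, higher in 15 of 15 arrays) and by 0.16 with rosiglitazone (SE 0.047, limma adjusted p = 0.00978).

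Pex3, the membrane receptor on which Pex19 docks, rose by 0.17 with GW501516 (SE 0.057, limma adjusted p = 0.0268). That call was lost without day 15 replicate 3, day 4 replicate 2 or day 8 replicate 2 of GW501516. Pex16, which also takes part in membrane assembly, rose by 0.17 with GW501516 (SE 0.052, limma adjusted p = 0.0194). Its second probe set had the opposite sign without a call (-0.18), the mean of both gave -0.0061, and the call was lost without GW501516 day 15 replicate 5. Pex2, a ubiquitin ligase subunit of the import machinery, fell by 0.10 with WY14643 (SE 0.031, limma adjusted p = 0.0298) and lost the call without any one of 4 WY14643 arrays (day 4 replicates 1 and 3, day 8 replicate 3 and day 15 replicate 4).

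**Figure D2:**
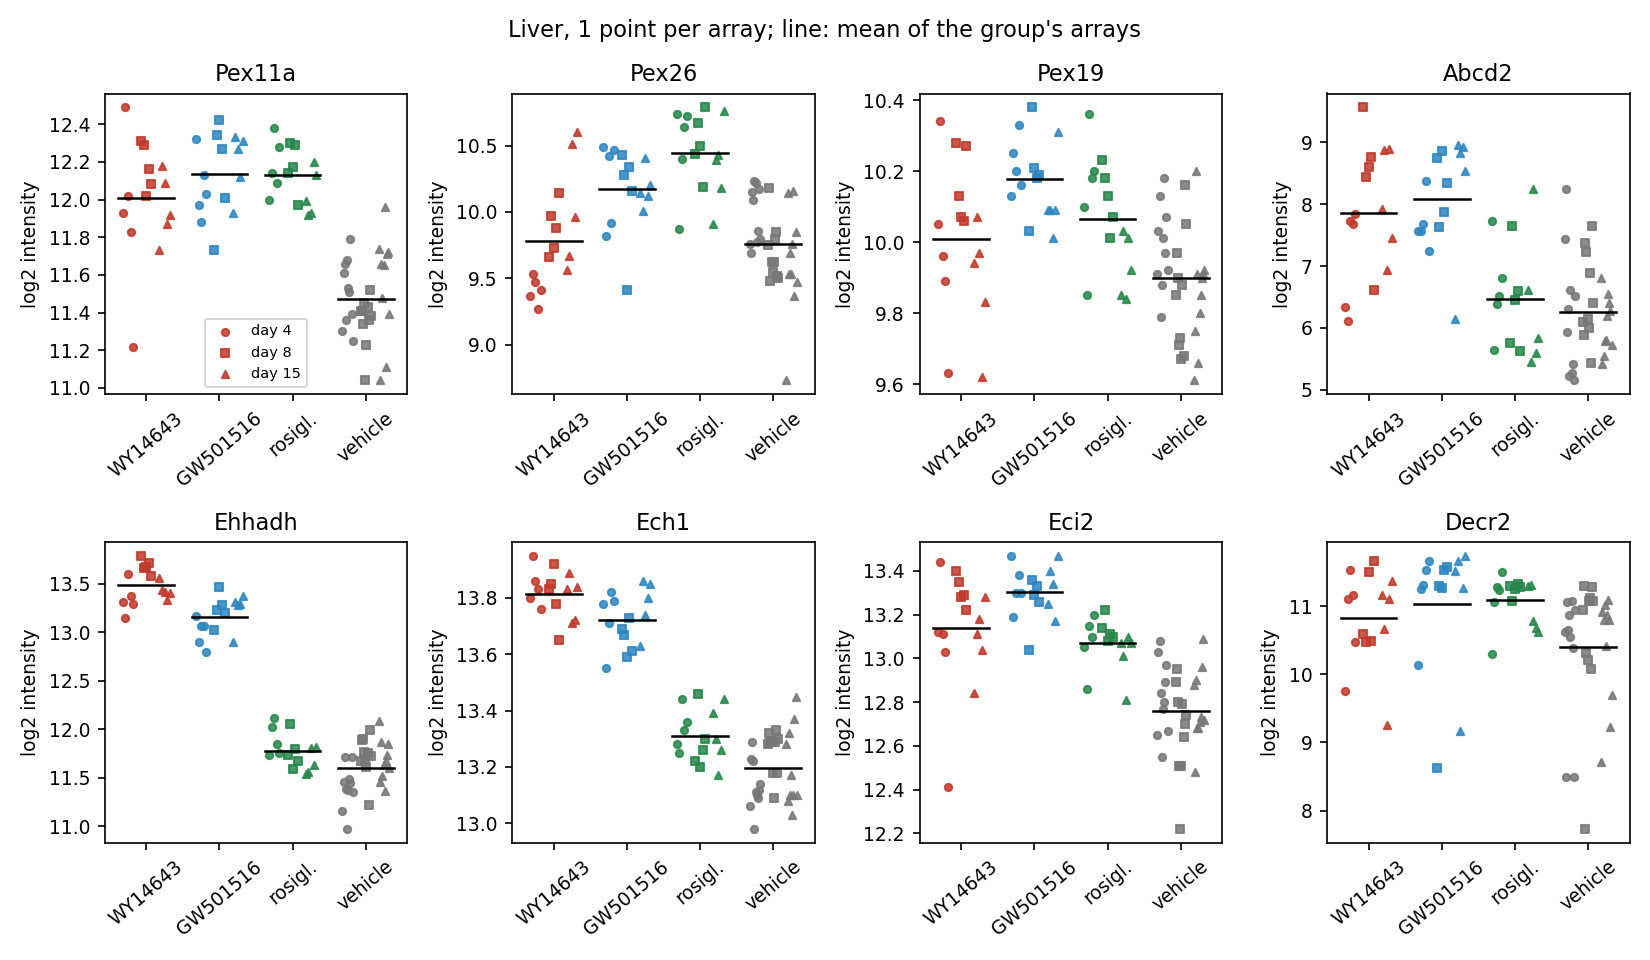
Log2 intensity in liver of the 6 members with the largest mean effect over the compounds and the 3 Pex genes with the largest, which share Pex11a; 1 point per array, shaped by day, for WY14643, GW501516 and rosiglitazone (n = 15 each) and vehicle (n = 30), with a line at the group mean. For Ehhadh and Ech1 the WY14643 and GW501516 points lie above every vehicle point, while the points of Abcd2 and Decr2 spread over several log2 units within a group.

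Of 3 enzymes that handle unsaturated fatty acids, Ech1 and Eci2 rose with each compound and Decr2 was not called. Ech1, a dienoyl-CoA isomerase, had liver levels of 13.65, 13.83 and 13.95 with WY14643, 13.55, 13.73 and 13.86 with GW501516, 13.17, 13.30 and 13.46 with rosiglitazone, and 12.98, 13.18 and 13.45 with vehicle. WY14643 and GW501516 arrays lay wholly above vehicle, and rosiglitazone arrays overlapped it. Its log2 fold change was 0.62 with WY14643 (SE 0.031), 0.53 with GW501516 and 0.12 with rosiglitazone, each called. Eci2, an enoyl-CoA isomerase, had liver levels of 12.41, 13.18 and 13.44 with WY14643, 13.04, 13.30 and 13.47 with GW501516, 12.81, 13.10 and 13.22 with rosiglitazone, and 12.22, 12.76 and 13.09 with vehicle. Its ranges overlapped vehicle for each compound, by a narrow margin with GW501516, and it rose by 0.38 (SE 0.054), 0.54 and 0.31 with WY14643, GW501516 and rosiglitazone.

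Decr2, the peroxisomal dienoyl-CoA reductase, had a large mean effect and no call. Its liver level was 9.25, 11.10 and 11.66 with WY14643, 8.63, 11.31 and 11.74 with GW501516, 10.29, 11.25 and 11.50 with rosiglitazone, and 7.73, 10.79 and 11.30 with vehicle. A few low arrays stretched every group except rosiglitazone, and all groups overlapped. The log2 differences from vehicle were 0.43, 0.64 and 0.69 with WY14643, GW501516 and rosiglitazone, each with an SE of 0.26.

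Among the other enzymes of the beta-oxidation path, Acaa1b, a peroxisomal thiolase, rose by 0.35 with WY14643 (SE 0.033), 0.40 with GW501516 and 0.22 with rosiglitazone. Acaa1b has a near-identical copy, Acaa1a, and the array may not separate them. Hsd17b4, the second bifunctional enzyme, rose by 0.23 with WY14643 (SE 0.029) and by 0.26 with GW501516. Acox2, an oxidase of branched chains and bile acid precursors, rose by 0.28 with WY14643 (SE 0.045). Acox3, Amacr and Scp2, which also act on branched chains, were not called with any compound.

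Acot8, a thioesterase that frees fatty acids from CoA, had liver levels of 9.57, 9.92 and 10.32 with WY14643, 9.54, 9.81 and 10.16 with GW501516, 9.27, 9.50 and 9.67 with rosiglitazone, and 8.90, 9.38 and 9.56 with vehicle. All WY14643 arrays lay above all vehicle arrays, and GW501516 arrays overlapped vehicle at their lowest value. It rose by 0.54 with WY14643 (SE 0.049) and by 0.45 with GW501516. Dhrs4, a carbonyl and retinal reductase, rose by 0.28 with WY14643 (SE 0.034) and by 0.23 with GW501516. Agps, an enzyme of ether lipid synthesis, rose with WY14643 (0.17, SE 0.044). Nudt7, a CoA diphosphatase, fell by 0.12 with WY14643 (SE 0.028) and by 0.08 with rosiglitazone (SE 0.028, limma adjusted p = 0.0463). The rosiglitazone call was lost without any one of 26 of 45 arrays.

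Crot, the octanoyltransferase that hands shortened chains to carnitine, moved in opposite directions. Its liver level was 12.36, 12.62 and 13.13 with WY14643, 12.09, 12.42 and 12.75 with GW501516, 11.45, 11.82 and 12.30 with rosiglitazone, and 11.27, 12.34 and 12.67 with vehicle. The groups overlapped vehicle, whose range was the widest. Crot rose by 0.38 with WY14643 (SE 0.071) and fell by 0.42 with rosiglitazone (SE 0.071, limma adjusted p = 5.24e-06, lower in 14 of 15 arrays). Lonp2, the protease of the peroxisomal matrix, fell by 0.21 with rosiglitazone (SE 0.043), but its other probe sets, of which 3 exist, were not called and 2 of them had positive values. Hacl1, the lyase of alpha-oxidation, fell by 0.16 with rosiglitazone (SE 0.060, limma adjusted p = 0.0483), a call lost without any one of 28 of 45 arrays. With clock components as covariates its direction turned, at 0.164 (limma adjusted p = 0.694).

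Of 6 genes of oxidases and peroxide removal, 1 fell and 1 rose with WY14643, and with the other compounds none was called by limma in liver, nor passed an unadjusted p under 0.05. Pipox, which oxidises pipecolate and sarcosine, had liver levels of 12.08, 12.66 and 12.75 with WY14643, 12.63, 12.78 and 12.998 with GW501516, 12.77, 12.86 and 12.99 with rosiglitazone, and 12.70, 12.84 and 12.98 with vehicle. Its WY14643 range overlapped vehicle only at the top, and it fell by 0.24 (SE 0.031, limma adjusted p = 1.80e-08, lower in 15 of 15 arrays). Hao2, a 2-hydroxy acid oxidase, was dim in liver, with levels of 2.26, 3.66 and 7.02 with WY14643 and 2.07, 2.87 and 3.98 with vehicle. It rose by 0.74 with WY14643 (SE 0.21, limma adjusted p = 0.0121, higher in 10 of 15 arrays), and lost the call without day 15 replicate 2 (0.49, limma adjusted p = 0.0563). Pxmp2, a channel of the membrane, fell by 0.11 with WY14643 (SE 0.031).

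Cat, which removes the hydrogen peroxide made by the oxidases, did not separate from vehicle. Its liver level was 13.54, 13.72 and 13.91 with WY14643, 13.54, 13.71 and 13.91 with GW501516, 13.55, 13.70 and 13.85 with rosiglitazone, and 13.57, 13.71 and 13.97 with vehicle. Its log2 differences from vehicle were 0.00, -0.02 and -0.01, none of them called. Members called in none of the 12 comparisons with vehicle numbered 18: Abcd4, Acox3, Amacr, Cat, Dao, Decr2, Gnpat, Hao1, Nudt19, Pex10, Pex11g, Pex14, Pex5, Pex6, Pex7, Phyh, Scp2 and Uox. They include the import receptors Pex5 and Pex7, the docking protein Pex14 and, for ether lipid synthesis, Gnpat.

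Pex genes and enzymes were then set side by side in liver. With WY14643, 1 of 13 Pex genes rose and 1 fell (median log2 fold change 0.04), against 11 of 27 enzymes that rose and 2 that fell (median 0.165). With GW501516, 5 of 13 Pex genes and 7 of 27 enzymes rose and 0 fell in both (medians 0.04 and 0.069). With rosiglitazone, 3 of 13 Pex genes rose and 0 fell (median 0.046), against 4 of 27 enzymes that rose and 4 that fell (median 0.008). The shares of all genes called were 11.2%, 13.9% and 16.2%, as above, which 2 of 13 Pex genes with WY14643 and 3 of 13 with rosiglitazone lie near. Of the 5 membrane genes, 1 rose and 1 fell with WY14643, 2 rose with GW501516 and 0 were called with rosiglitazone. Members called and changed by at least 1.5-fold numbered 4 with WY14643, 3 with GW501516 and 2 with rosiglitazone (8.89%, 6.67% and 4.44% of the 45), against 230, 227 and 219 of all 18193 genes (1.2% to 1.26%). The difference between Pex genes and enzymes was not tested.

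**Figure D3:**
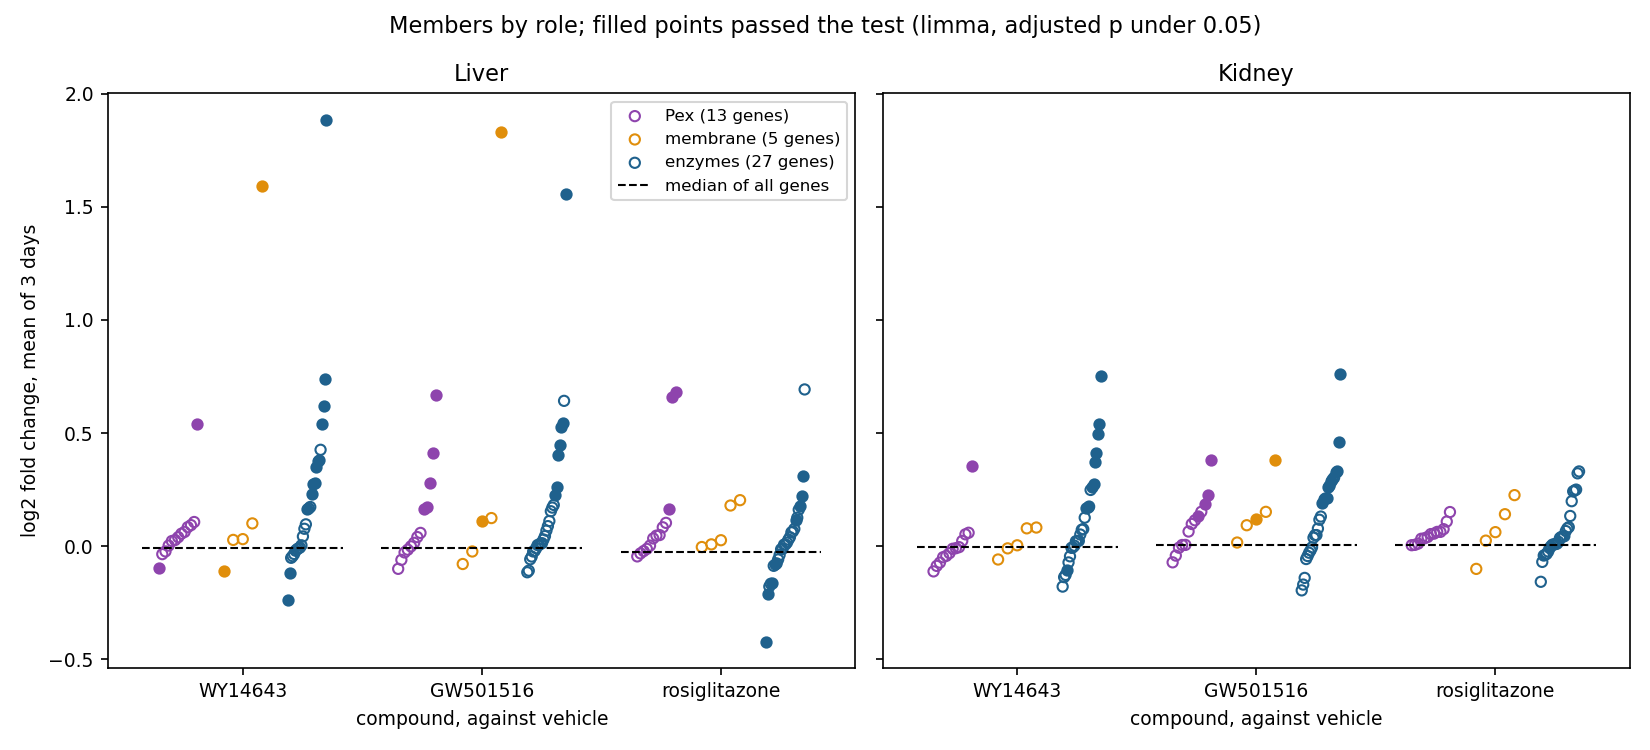
Log2 fold change against vehicle (mean of 3 days) in liver and kidney, 1 point per gene sorted within its group, for Pex genes (n = 13), membrane genes (n = 5) and enzymes (n = 27) with each compound; filled points have an adjusted p under 0.05 (limma) and the dashed line is the median of all genes. In liver the highest points are Ehhadh with WY14643 (1.89) and Abcd2 with GW501516 (1.83), and most Pex points lie near the dashed line.

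Genes of clock function moved in the same liver comparisons: of 16 measured clock genes, 1 rose and 1 fell with WY14643, 8 rose and 4 fell with GW501516, and 8 rose and 4 fell with rosiglitazone. With the first 2 components of the clock genes as covariates, which hold 60.9% and 15.1% of their variance, 18 members were called with WY14643, 10 with GW501516 and 0 with rosiglitazone, beside 2189, 493 and 33 of all genes. In that fit Ehhadh kept 1.47 with GW501516, and Pex11a gave 0.49 with WY14643, 0.41 with GW501516 (limma adjusted p = 0.00921) and 0.23 with rosiglitazone (limma adjusted p = 0.632). Pex26 gave 0.47 with rosiglitazone (limma adjusted p = 0.416) and Crot -0.08. At an unadjusted p under 0.05 that fit gave 3 members with rosiglitazone, against 17 without the covariates. The components come from the same livers as the effects, and clock genes themselves moved with GW501516 and rosiglitazone. That fit therefore cannot tell the part of the clock genes from that of the compound. A call lost in it does not show that the effect is absent. What the clock genes contribute was not tested beyond that fit.

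On days 4, 8 and 15, 16, 12 and 8 members were called with WY14643, against 6.45%, 6.32% and 2.86% of all genes. With GW501516 the counts were 8, 10 and 11, against 1.35%, 8.83% and 4.42% of all genes, and with rosiglitazone 4, 10 and 4, against 1.23%, 12.8% and 5.34% of all genes. The member whose effect changed with time was Pex26. Pex26 had liver levels of 9.27, 9.41 and 9.53 with WY14643 on day 4 (lowest, median and highest), below every vehicle array of that day, at 9.69, 9.98 and 10.23. On day 15 its levels were 9.56, 9.96 and 10.60 with WY14643 and 8.73, 9.61 and 10.16 with vehicle, which overlap. The effect of WY14643 on Pex26 was -0.56 on day 4 (SE 0.16, limma adjusted p = 0.0233), 0.19 on day 8 and 0.44 on day 15, and the day 15 effect exceeded the day 4 effect by 1.0 (95% interval 0.54 to 1.46, limma adjusted p = 0.0158). Pex26 was the only member called in that contrast, in which 0.753% of all genes were called. The difference was 0.89 without WY14643 day 15 replicate 3 (limma adjusted p = 0.0721) and 0.58 with clock components as covariates (limma adjusted p = 0.738). With GW501516 the Pex26 effects were 0.25, 0.44 and 0.55 on days 4, 8 and 15, and with rosiglitazone 0.50, 0.83 and 0.71.

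Abcd2 rose with WY14643 by 0.93 on day 4, 1.89 on day 8 and 1.97 on day 15, of which day 4 was not called, and with GW501516 by 1.47, 1.78 and 2.23, again without a call on day 4. The day 15 minus day 4 contrast of Abcd2 was 1.04 with WY14643 (SE 0.63, limma adjusted p = 0.577) and did not pass the test. Crot differed from vehicle by 0.66, 0.18 and 0.30 with WY14643 on days 4, 8 and 15, and by -0.09, -0.50 and -0.68 with rosiglitazone. Vehicle animals moved too: on day 8 against day 4, where 9.73% of all genes were called, Ehhadh was higher by 0.31, Crot by 0.35, Far1 by 0.38, Hacl1 by 0.29, Pxmp4 by 0.35 and Lonp2 by 0.18, and Cat, Pex2 and Pxmp2 were lower (-0.13, -0.13 and -0.14). On day 15 against day 4, where 4.06% of all genes were called, Ehhadh was higher by 0.27, Lonp2 by 0.21 and Scp2 by 0.05, and Pxmp2 was lower (-0.14).

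**Figure D4:**
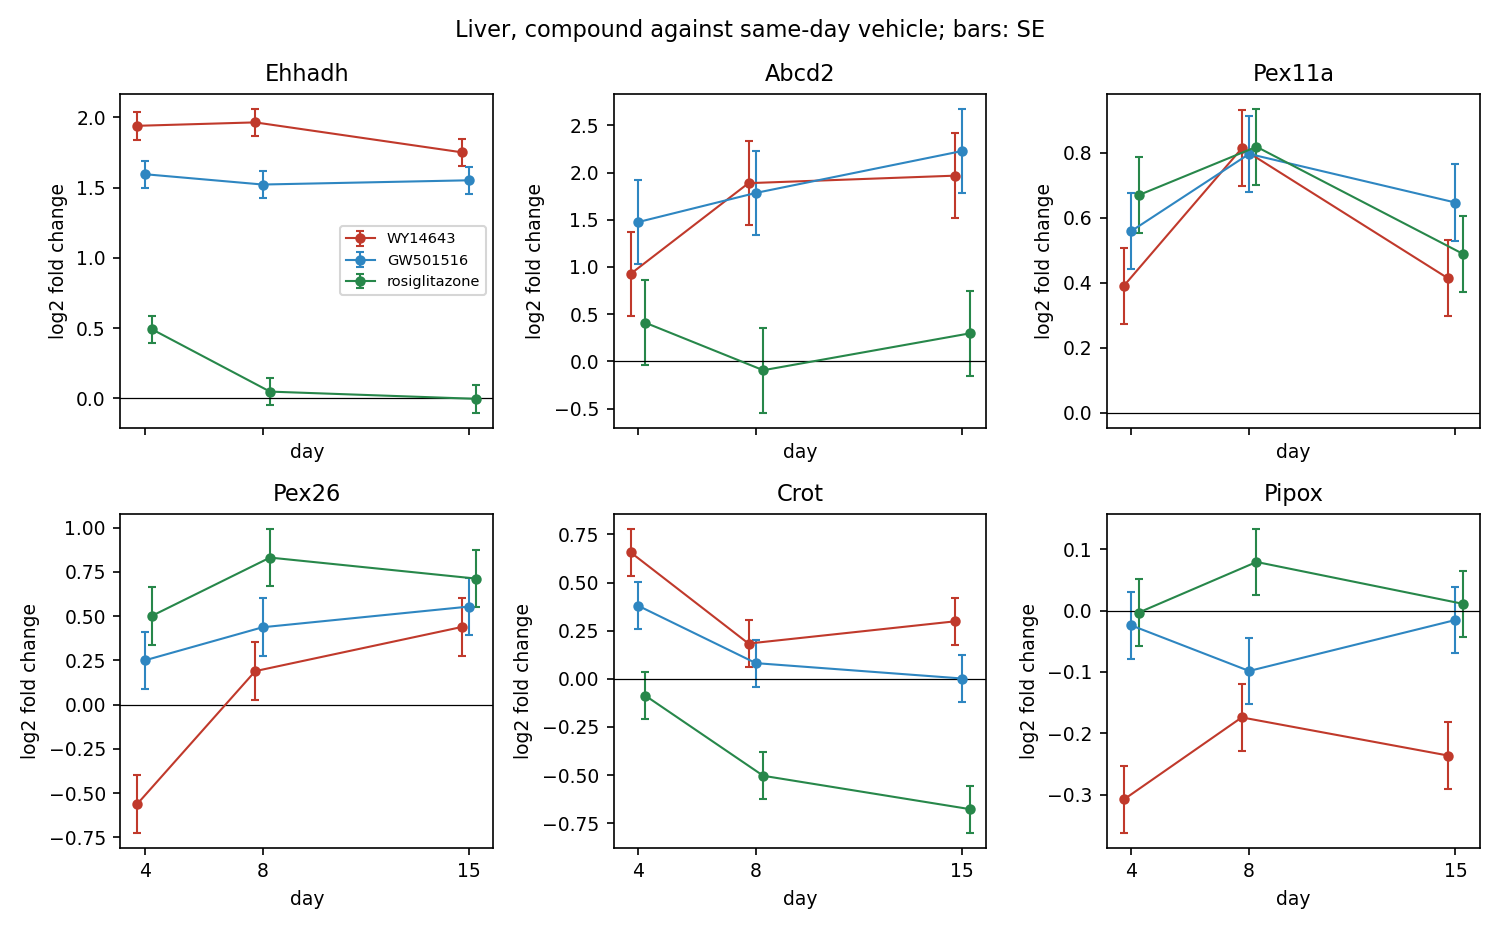
Log2 fold change against same-day vehicle in liver (vertical axis) on days 4, 8 and 15 (horizontal axis) for 6 members with WY14643, GW501516 and rosiglitazone; points are the fitted differences (n = 5 treated and 10 vehicle arrays per day) and bars are the SE. Pex26 with WY14643 lies at -0.56 on day 4 and at 0.44 on day 15, while Ehhadh with WY14643 lies between 1.75 and 1.97 on every day.

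The agonists were next compared directly at the same dose and days, in 3 pairs per tissue and 12 comparisons in all, with p-values adjusted over genes within each. In liver, WY14643 and GW501516 differed in 5 members, against 4.55% of all genes called. Ehhadh was higher with WY14643 by 0.33 (95% interval 0.20 to 0.46, limma adjusted p = 0.00061), Hacl1 by 0.28 (0.14 to 0.41, limma adjusted p = 0.00843) and Acox2 by 0.19 (0.09 to 0.29, limma adjusted p = 0.0185). Pipox was lower with WY14643 (-0.19, 95% interval -0.27 to -0.12, limma adjusted p = 0.000251), as was Pex26 (-0.39, 95% interval -0.61 to -0.17, limma adjusted p = 0.0201). The Acox2 call was lost without WY14643 day 4 replicate 2 or day 8 replicate 1, and the Pex26 call without WY14643 day 15 replicate 1. Abcd2 was not separated (-0.24, 95% interval -0.83 to 0.36), nor was Pex11a (-0.13, 95% interval -0.28 to 0.03). With clock components as covariates, 1 member was called, Ehhadh (0.41, limma adjusted p = 0.0253), beside 29 of all genes against 827 without them. Hacl1 then turned sign, at -0.0042 (limma adjusted p = 0.997).

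WY14643 and rosiglitazone differed in 17 liver members, 14 higher and 3 lower with WY14643, against 17.6% of all genes called. Ehhadh was higher by 1.71 (95% interval 1.58 to 1.84), Abcd2 by 1.39 (0.79 to 1.99), Hao2 by 0.92 (0.43 to 1.41), Crot by 0.80 (0.64 to 0.97), Ech1 by 0.50 and Hacl1 by 0.33. Pex26 was lower by 0.66 on the log2 scale with WY14643 (-0.66, 95% interval -0.88 to -0.44), Pipox by a difference of -0.27 and Pxmp2 by -0.12. With clock components as covariates, 4 members were called, Ehhadh (1.82), Ech1 (0.52), Acot8 (0.43) and Dhrs4 (0.28), beside 203 of all genes against 3199 without them. GW501516 and rosiglitazone differed in 11 members, all higher with GW501516, against 3.59% of all genes called. They were led by Abcd2 (1.63), Ehhadh (1.38), Crot (0.58), Ech1 (0.41), Acot8 and Lonp2 (0.32 each) and Eci2 (0.23), and 0 of 13 Pex genes were among them by limma (4 at an unadjusted p under 0.05).

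Kidney was the second tissue in which members moved. With WY14643, 10 members rose and 1 fell against 1.74% of all genes called, and with GW501516, 16 rose and 0 fell against 6.79% of all genes called. With rosiglitazone 0 members were called by limma, where 1.52% of all genes were called. Counted at an unadjusted p under 0.05, 10 members differed, with no share of all genes at that threshold. The members called were 6 with array weights, where 737 of all genes were called, and 5 with only the arrays of rosiglitazone and vehicle in the fit, where 559 were called, beside 276 of all genes in the reported fit. The members' median log2 fold change was 0.023, 0.117 and 0.041 with WY14643, GW501516 and rosiglitazone. Of the called members with WY14643, 1 was a Pex gene and 10 were enzymes, and with GW501516 4 were Pex genes, 2 membrane genes and 10 enzymes. With the replicate number as a block, 10 members were called with GW501516, beside 409 of all genes against 1236 without it. On days 4, 8 and 15 taken singly, GW501516 called 4, 11 and 10 kidney members, beside 31, 1703 and 242 of all genes. Of the day 8 calls, 9 were higher and 2 lower.

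Acaa1b had kidney levels of 12.11, 12.49 and 12.96 with WY14643, 11.80, 12.51 and 12.94 with GW501516, 11.71, 12.01 and 12.17 with rosiglitazone, and 11.50, 11.75 and 12.31 with vehicle. Ranges overlapped vehicle, yet 15 of 15 arrays of WY14643 and of GW501516 lay above the vehicle mean of their day, and the log2 fold change was 0.75 and 0.76 (SE 0.061 each). Ehhadh had kidney levels of 11.74, 11.88 and 12.43 with WY14643, 10.93, 11.79 and 11.91 with GW501516, 11.23, 11.39 and 11.69 with rosiglitazone, and 11.18, 11.33 and 11.67 with vehicle. All WY14643 arrays lay above all vehicle arrays, and 1 low array of GW501516 lay below them; the rises were 0.54 and 0.33. Pex11a had kidney levels of 10.36, 10.58 and 10.98 with WY14643, 10.34, 10.65 and 10.78 with GW501516, 10.18, 10.41 and 10.85 with rosiglitazone, and 10.02, 10.25 and 10.59 with vehicle. These ranges overlapped, and Pex11a rose by 0.35 with WY14643 and by 0.38 with GW501516 (SE 0.046 each).

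Hacl1 rose in kidney by 0.50 with WY14643 and by 0.33 with GW501516. Also called with both compounds in kidney were Ech1 (0.41 with WY14643 and 0.29 with GW501516), Eci2 (0.37 and 0.46), Nudt7 (0.27 and 0.26), Acot8 (0.26 and 0.21), Dhrs4 (0.17 and 0.21) and Hsd17b4 (0.17 and 0.19). The Hsd17b4 call with WY14643 was lost without any one of 25 of 45 arrays. Also higher with GW501516 than with vehicle in kidney, and not called with WY14643, were the membrane proteins Pxmp4 (0.38) and Abcd3 (0.12), the protease Lonp2 (0.21), and the biogenesis genes Pex16 (0.23), Pex13, a docking protein of import (0.19), and Pex19 (0.13). Of these, Pxmp4 and Pex16 also differed between WY14643 and GW501516, and Abcd3, Lonp2, Pex13 and Pex19 were not called in that comparison. Abcd3 was 0.08 above vehicle with WY14643 (limma adjusted p = 0.307, higher in 12 of 15 arrays). The Pex19 call was lost without GW501516 day 4 replicate 4, day 8 replicate 1 or day 15 replicate 5. Pipox fell by 0.10 with WY14643, a call lost without any one of 14 of 45 arrays.

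Between agonists in kidney, Hao2 was higher with WY14643 than with GW501516 by 0.32, and Pex16 and Pxmp4 were lower (-0.27 and -0.30), against 1.34% of all genes called. WY14643 exceeded rosiglitazone in 9 members and lay below it in 2, against 1.95% of all genes called; Acaa1b (0.55), Ehhadh (0.50), Hacl1 (0.49) and Ech1 (0.40) led, and Pex3 (-0.15) and Phyh (-0.18) were lower. GW501516 exceeded rosiglitazone in 7 members, against 1.12% of all genes called: Acaa1b (0.56), Eci2 (0.33), Ehhadh (0.29), Ech1 (0.28), Pxmp4 (0.24), Pex11a (0.23) and Dhrs4 (0.19).

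Heart gave 1 called member with WY14643, 0 with GW501516 and 1 with rosiglitazone, where 1.44%, 4.17% and 7.51% of all genes were called. At an unadjusted p under 0.05 (limma), 2 members differed with GW501516. Ehhadh had heart levels of 8.46, 9.26 and 10.46 with WY14643, 8.51, 9.05 and 9.59 with GW501516, 8.64, 8.96 and 11.03 with rosiglitazone, and 8.32, 8.87 and 9.25 with vehicle. Ranges overlapped, and it rose by 0.49 with WY14643 (SE 0.13, limma adjusted p = 0.0333, higher in 11 of 15 arrays). The call was lost without any one of 6 WY14643 arrays (day 4 replicates 2 and 3, day 8 replicates 3 and 4, day 15 replicates 2 and 4), without day 8 (0.54, limma adjusted p = 0.0757) and with the replicate number as a block (0.45, limma adjusted p = 0.165).

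Acaa1b varied widely in heart, at 5.07, 9.19 and 11.33 with WY14643, 5.41, 8.05 and 11.07 with GW501516, 5.97, 9.56 and 11.29 with rosiglitazone, and 5.31, 7.38 and 9.62 with vehicle. All groups overlapped over most of their range. It was 1.61 higher with rosiglitazone (SE 0.43, limma adjusted p = 0.0108, higher in 13 of 15 arrays), 1.23 with WY14643 (limma adjusted p = 0.145) and 0.52 with GW501516 (limma adjusted p = 0.661). The hepatocyte list mean of the same heart arrays ran over 6.09 to 11.77 with WY14643, 5.94 to 11.40 with GW501516, 6.32 to 11.97 with rosiglitazone and 6.30 to 11.83 with vehicle. With that mean as a covariate, Acaa1b was called with every compound, at 0.97 with WY14643 (limma adjusted p = 0.0254), 1.09 with GW501516 (limma adjusted p = 0.00353) and 1.22 with rosiglitazone (limma adjusted p = 0.000501). The rosiglitazone array of day 4 replicate 1 had the highest adipocyte list mean of all 75 hearts, 12.11, against at most 8.64 with vehicle, and held the highest rosiglitazone levels of Ehhadh (11.03) and Acaa1b (11.29). The Acaa1b call with rosiglitazone was kept without this or any other single array, and with the adipocyte list mean as a covariate. Without day 4, the Acaa1b difference with rosiglitazone was 1.53 (limma adjusted p = 0.0608), and with clock components as covariates 2.05 (limma adjusted p = 0.179). Between agonists in heart, WY14643 and rosiglitazone differed in 2 members, against 6.12% of all genes called: Pex13 was higher with WY14643 (0.11, limma adjusted p = 0.0246) and Abcd3 lower (-0.08, limma adjusted p = 0.049). The comparisons of WY14643 with GW501516 and of GW501516 with rosiglitazone called 0 members in heart by limma, where 3.03% and 0.044% of all genes were called. Counted at an unadjusted p under 0.05, 11 and 5 members differed, with no share of all genes at that threshold.

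**Figure D5:**
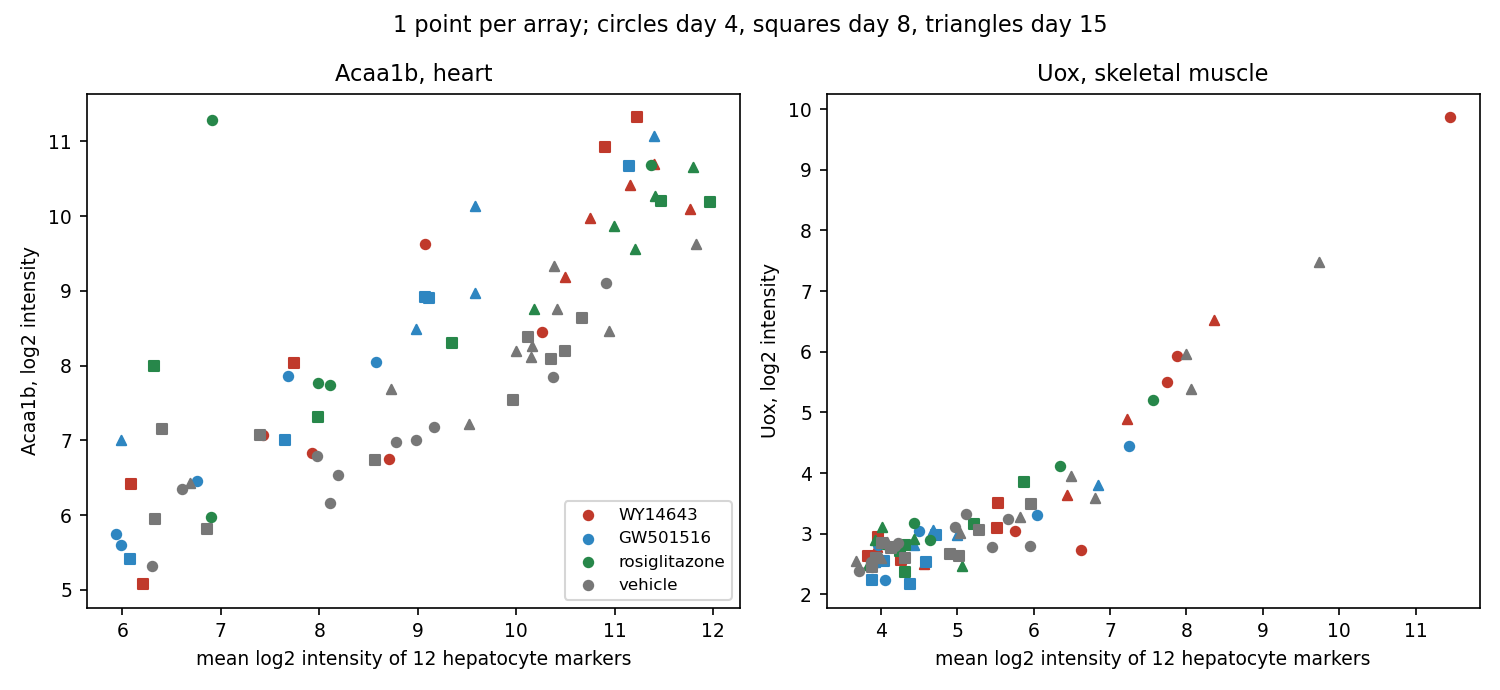
Log2 intensity of Acaa1b in heart and of Uox in skeletal muscle (vertical axes) against the mean log2 intensity of 12 hepatocyte markers (horizontal axes), 1 point per array, coloured by compound and vehicle and shaped by day. Heart arrays spread from 5.94 to 11.97 on the horizontal axis in overlapping groups, and 1 muscle array of WY14643, at 11.45, holds the highest Uox level of 9.87.

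Skeletal muscle gave 0 called members with WY14643 (limma), 1 with GW501516 and 1 with rosiglitazone, where 0.104%, 0.857% and 1.65% of all genes were called. At an unadjusted p under 0.05, 7 members differed with WY14643 in skeletal muscle, among them Acaa1b (1.40) and Ehhadh (0.61). That number was 0 without day 4, 2 with hepatocyte or with adipocyte markers as a covariate, and 14 with the replicate number as a block. The adipocyte list mean of muscle arrays ran over 7.44 to 11.97 with WY14643, 7.46 to 11.43 with GW501516, 7.39 to 11.67 with rosiglitazone and 7.17 to 11.58 with vehicle. Eci2 had muscle levels of 10.05, 10.71 and 11.51 with WY14643, 10.79, 11.13 and 11.37 with GW501516, 10.40, 10.75 and 11.15 with rosiglitazone, and 10.34, 10.59 and 11.05 with vehicle. Ranges overlapped, with all 15 GW501516 arrays above the vehicle mean of their day, and Eci2 rose by 0.50 (SE 0.070, limma adjusted p = 1.31e-06). The difference from vehicle was 0.09 with WY14643, and WY14643 lay below GW501516 by a difference of -0.41 (95% interval -0.57 to -0.25, limma adjusted p = 0.00363), in a comparison with 0.572% of all genes called. In muscle, WY14643 minus rosiglitazone and GW501516 minus rosiglitazone called 0 members by limma, where 0.0385% and 0.066% of all genes were called. Counted at an unadjusted p under 0.05, 3 and 10 members differed, with no share of all genes at that threshold. Far1, which makes the fatty alcohols of ether lipids, had muscle levels of 8.74, 9.10 and 9.28 with rosiglitazone and 8.99, 9.29 and 9.73 with vehicle, and fell by 0.23 (SE 0.064, limma adjusted p = 0.0375). With adipocyte markers as a covariate, Eci2 gave 0.53 with GW501516 and Far1 -0.22 with rosiglitazone, both called. The ranges of Far1 overlapped, and its reported call was lost without any one of 13 of 45 arrays.

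On day 4 alone, WY14643 muscle had 3 called members, against 3.34% of all genes called. Uox, the urate oxidase, stood at 2.74, 5.50 and 9.87 with WY14643 and 2.39, 2.79 and 3.32 with vehicle, a difference of 2.59 (SE 0.60, limma adjusted p = 0.00934). Hao1, the glycolate oxidase of liver, stood at 1.70, 3.38 and 8.04 with WY14643 and 1.29, 1.60 and 2.85 with vehicle, a difference of 2.11 (SE 0.56, limma adjusted p = 0.024). Scp2, a thiolase and sterol carrier, differed by 0.68 (SE 0.20, limma adjusted p = 0.0443), and all of these groups overlapped. The Scp2 call was lost without any one of 9 of 45 arrays, with limma adjusted p up to 0.178, and the count of called members ran from 0 to 8 over the arrays left out. The hepatocyte list mean of those arrays was 5.76, 6.62, 7.75, 7.88 and 11.45 with WY14643, the last in replicate 3, and 3.72 to 5.95 with vehicle. Without replicate 3, Uox differed by 1.48 (limma adjusted p = 0.162) and Hao1 by 1.04 (limma adjusted p = 0.29), and with the list mean as a covariate 0 members and 1 of all genes were called in this comparison, against 608 of all genes without it, and Hao1 gave -0.0958.

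Whether liver responded differently from the other tissues was tested within animals, by differences between 2 tissues of the same mouse. With WY14643, the liver effect exceeded the heart effect in 10 members and lay below it in 1, against 6.52% of all genes called; the counts were 6 and 4 against kidney (4.69% called) and 8 and 0 against skeletal muscle (3.52% called). With GW501516 they were 11 and 0 against heart (10.2% called), 7 and 4 against kidney (8.18% called) and 6 and 0 against skeletal muscle (4.26% called). With rosiglitazone they were 6 and 4 (12.5% called), 2 and 2 (7.22% called), and 2 and 3 (6.08% called) against heart, kidney and skeletal muscle.

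Abcd2 and Ehhadh differed most between tissues with WY14643. The liver effect exceeded those in heart, kidney and skeletal muscle by 1.52, 1.60 and 1.51 for Abcd2 and by 1.39, 1.35 and 1.28 for Ehhadh. With rosiglitazone, Pex26 exceeded them by 0.70, 0.68 and 0.79 and Pex11a by 0.68, 0.51 and 0.44, while Crot lay below them (-0.45, -0.39 and -0.44). The Pex11a difference against skeletal muscle was lost without any one of 18 of 45 animals. Other genes had a lower signed effect in liver than in kidney: with WY14643 Acaa1b (-0.40), Nudt7 (-0.39) and Hacl1 (-0.33), which rose in kidney, and Pipox (-0.14), which fell by 0.24 in liver and by 0.10 in kidney, and with GW501516 Pxmp4 (-0.46), Hacl1 (-0.44), Acaa1b (-0.36) and Nudt7 (-0.32). The Pipox difference was lost without any one of 12 of 45 animals.

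A list of 34 further peroxisomal genes, of which 27 were measured, was read beside the members. In liver, 11 rose and 3 fell with WY14643, 12 rose and 3 fell with GW501516, and 8 rose and 4 fell with rosiglitazone, against the 11.2%, 13.9% and 16.2% of all genes called. Acot3, a long-chain acyl-CoA thioesterase, changed more than any member, by 3.16 with WY14643 (SE 0.37), 4.24 with GW501516 and 3.54 with rosiglitazone, and Acot4 by 0.84, 1.40 and 1.17; these genes have near-identical neighbours that the array may not separate. Crat, the carnitine acetyltransferase, rose by 1.10, 1.08 and 0.33, and Agxt, the glyoxylate aminotransferase, changed by -0.13, -0.19 and -0.28. In kidney, 3 rose with WY14643, 6 rose and 1 fell with GW501516 and 0 were called with rosiglitazone. The shares of all genes called there were 1.74%, 6.79% and 1.52%. Kidney values for WY14643 and GW501516 were 1.35 and 1.49 for Acot3 and 0.26 and 0.39 for Crat. In skeletal muscle, Mlycd, malonyl-CoA decarboxylase, rose with GW501516 (0.71, SE 0.077), as did Crat (0.22).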

How the data were processed

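The authors deposited log2 intensities of 45101 probe sets on 300 arrays, made with RMA in Partek per the submitters' processing notes. Per the labels' protocols, a miRNeasy kit with a DNase I step gave the RNA, of which 100 ng was amplified and labelled with NuGEN reagents. Of the probe sets, 34945 named 1 gene, and the one with the highest mean stood for its gene, without a filter on dim genes. The 45 members, the gene lists and the tests were chosen with earlier results of these data known. Groups, days and mouse numbers came from the labels. Each tissue was fitted by itself with limma 3.58.1 in R 4.3.3 (1 mean for each of 12 groups, eBayes with a trend, 63 residual degrees of freedom). The p-values are two-sided and adjusted by Benjamini-Hochberg over 18193 genes, with calls under 0.05. Tissues were compared by differences within a mouse: deviations from group means correlated at a median of 0.153, 0.168 and 0.102 for liver with heart, kidney or skeletal muscle of one mouse number (75 pairs each), and at -0.0249, -0.0309 and -0.0154 between other mice of a group. The number of arrays limits the precision. Values by array are given for the 6 members with the largest mean liver effect, the 3 leading Pex genes, and further members whose call differs between compounds or tissues; effects are given for up to 8 rises and 4 falls per comparison and for every Pex gene called in liver, and some further called members are named outside this rule, after their values were seen. The fits were also run on simulated data with independent normal errors for each gene. Such data cannot show whether the calls hold where genes vary together between arrays. Alternatives covered scaling, dim genes, probe sets, the variance prior, array weights, the samples in the fit, days, single arrays, replicate numbers, and hepatocyte, adipocyte and clock covariates; the adipocyte covariate and leaving out day 4 were added after seeing the data.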

Additional observations from a re-analysis of the deposited data

Results flagged for a closer look

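Within groups of 5 or 10 arrays, 21 extreme values stood apart from their group by Dixon's criterion among 228 groups tested; chance flags about 1 in 20. Several come from the same array, and no explanation was tested. A replicate number does not always name the same mouse in liver as in the other tissues. GW501516 day 8 replicate 1, listed for liver and for kidney, is a different mouse in each. In liver, Abcd2 was at 6.15 in GW501516 day 15 replicate 1 (the other 4 arrays at 8.53 to 8.96), and Ehhadh of the same array was at 12.90 (others 13.28 to 13.37). Decr2 in liver was at 10.13 in GW501516 day 4 replicate 1, 8.63 in day 8 replicate 1 and 9.17 in day 15 replicate 3, and at 7.73 in vehicle day 8 replicate 2. Ehhadh in liver was at 11.22 in vehicle day 8 replicate 7. Pex19 in liver was at 10.31 in GW501516 day 15 replicate 5 and at 10.20 in vehicle day 15 replicate 2. Pex26 in liver was at 9.41 in GW501516 day 8 replicate 3 (others 10.16 to 10.43) and at 10.18 in vehicle day 8 replicate 10.

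In kidney, WY14643 day 4 replicate 2 stood high in Acaa1b (12.96, others 12.26 to 12.42), Ehhadh (12.43, others 11.78 to 11.86) and Hacl1 (10.80, others 9.17 to 9.60). GW501516 day 8 replicate 1 stood low in Acaa1b (11.80) and Ehhadh (10.93), and GW501516 day 4 replicate 1 was high in Acaa1b (12.94). Pex11a in kidney was at 10.44 in GW501516 day 8 replicate 2. Ehhadh in heart was at 11.03 in rosiglitazone day 4 replicate 1 (others 8.73 to 9.30). Hao1 in skeletal muscle was at 8.04 in WY14643 day 4 replicate 3 (others 1.70 to 3.48) and at 2.85 in vehicle day 4 replicate 10.

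Effects that differed between tissues in the within-animal test (limma, adjusted p under 0.05), given as the liver effect minus the other, were as follows. With GW501516, Abcd2 differed by 1.63 from heart, 1.81 from kidney and 1.80 from skeletal muscle, and Ehhadh by 1.37, 1.23 and 1.70. With WY14643, Abcd2 differed by 1.52, 1.60 and 1.51 and Ehhadh by 1.39, 1.35 and 1.28. With rosiglitazone, Acaa1b differed by -1.39 from heart, and that call was lost without rosiglitazone day 4 replicates 1 or 4, or day 8 replicates 1 or 5, each left out singly. Pex26 differed by 0.70 from heart, 0.68 from kidney and 0.79 from skeletal muscle, and Pex11a by 0.51 from kidney and 0.44 from skeletal muscle. Between days, the WY14643 effect on Pex26 in liver differed by 1.0 (day 15 minus day 4).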

How the results depend on the processing

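Of 186 called member results, 35 lost the call without at least 1 single array. Counts of called members stayed within 1.5 times the reported ones for liver and kidney with WY14643, and for liver with GW501516, under every alternative run. With clock components as covariates, the liver counts were 0 for rosiglitazone, 1 for WY14643 minus GW501516 and 4 for WY14643 minus rosiglitazone (33, 29 and 203 of all genes). The same covariates gave 0 for the day 15 minus day 4 effect of WY14643 in liver (10 of all genes). They also gave 0 for rosiglitazone in heart, rosiglitazone in skeletal muscle and WY14643 in day 4 muscle (219, 172 and 30 of all genes). What samples with the same replicate number share beside it is not given in the labels. Between compounds on the same day, their deviations correlated at a median of -0.0005 in liver, 0.0411 in heart, 0.0187 in kidney and 0.0626 in skeletal muscle. Samples with different replicate numbers gave -0.00408, 0.00203, -0.00157 and -0.0072 in the same order. The replicate block gave 10 members for GW501516 in kidney, 0 for WY14643 in heart, 3 for rosiglitazone in skeletal muscle and 7 for WY14643 in day 4 muscle (409, 212, 629 and 738 of all genes), and ended the call of 15 of 77 member results; without the block by animal, 3 of 76 tissue differences lost theirs. With hepatocyte markers as a covariate, heart gave 2, 1 and 2 members for WY14643, GW501516 and rosiglitazone (314, 808 and 1244 of all genes). Skeletal muscle then gave 3 for rosiglitazone and 0 for WY14643 on day 4 (322 and 1 of all genes). With adipocyte markers, rosiglitazone gave 2 in heart, GW501516 3 in skeletal muscle and WY14643 0 in day 4 muscle (1304, 235 and 95 of all genes). Array weights gave 2 for rosiglitazone in heart, 6 in kidney and 3 in skeletal muscle (2070, 737 and 643 of all genes). They gave 1 for WY14643 in day 4 muscle (142 of all genes). The mean of all probe sets gave 1 for GW501516 and 2 for rosiglitazone in heart, and 2 for rosiglitazone in kidney (793, 1385 and 270 of all genes). Without dim genes rosiglitazone gave 2 in heart and 2 in skeletal muscle (1333 and 330 of the 10916 genes kept). With only the compound and vehicle in the fit, rosiglitazone gave 5 in kidney and 2 in skeletal muscle (559 and 351 of all genes). WY14643 then gave 0 in day 4 muscle (197 of all genes). Without day 4, rosiglitazone gave 2 in kidney and 3 in skeletal muscle (292 and 584 of all genes). Without day 8, WY14643 gave 0 in heart and 0 in day 4 muscle, and rosiglitazone 0 in skeletal muscle (72, 261 and 9 of all genes). Signs turned for Hacl1 in liver with clock components (WY14643 minus GW501516 -0.0042, rosiglitazone 0.164), for Hao1 in day 4 muscle with hepatocyte markers (-0.0958) and for Pex16 in liver with the mean of its probe sets (GW501516 -0.0061). The counts over all genes moved as well, as in rosiglitazone kidney with array weights (276 in the reported fit, 737 with weights) and WY14643 day 4 muscle with hepatocyte markers (608 and 1). The cause of these shifts was not tested.

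Leaving out single arrays gave 16 to 21, 13 to 16 and 9 to 12 members in liver for WY14643, GW501516 and rosiglitazone, 9 to 12, 15 to 19 and 0 to 2 in kidney, 0 to 1, 0 to 0 and 1 to 2 in heart, and 0 to 0, 1 to 1 and 0 to 2 in skeletal muscle. WY14643 minus GW501516 ran from 4 to 7 in liver, WY14643 minus rosiglitazone from 16 to 19, GW501516 minus rosiglitazone from 10 to 12, the day 15 minus day 4 effect of WY14643 from 0 to 2, and WY14643 in day 4 muscle from 0 to 8. Tissue differences ran from 10 to 11, 8 to 12 and 5 to 9 for WY14643 (heart, kidney and skeletal muscle), 11 to 12, 10 to 12 and 4 to 7 for GW501516, and 8 to 11, 4 to 5 and 3 to 7 for rosiglitazone.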
